A study of Mus musculus with 18 samples.

Results

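The genes Ifi203, Ifi204, Ifi205 and Mndal belong to the PYHIN family, and their messenger RNA (mRNA) was followed in RAW264.7 cells, a mouse macrophage line. The 4 genes were chosen by name from a table of 11243 counted genes, and all 4 were counted. Ifi205 was selected on its large difference between LPS and control cells in polysome-associated mRNA, and the others as related genes with that contrast in view, so values of LPS against control are given for all 4 as a description with no test. Control cells received the vehicle DMSO. LPS cells received 500 ng/mL lipopolysaccharide for 6 h, and LPS + torin1 cells received 100 nM torin1, an inhibitor of the kinase mTOR, 15 min ahead of the same LPS. The 3 treatments were repeated in 3 independent experiments. From each of the 9 lysates total mRNA and heavy-polysome mRNA, which carries several ribosomes, were sequenced separately. All 18 libraries came from this single cell line, so p-values measure the spread between the experiments.

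PYHIN proteins pair an N-terminal pyrin domain with a C-terminal HIN domain that binds DNA, although some members lack either part. The best known member, Aim2, senses DNA in the cytosol and assembles an inflammasome that activates caspase-1. Ifi204 has been studied as a mouse counterpart of human IFI16, a DNA sensor that signals through STING, and many genes of the mouse cluster are induced by interferon in macrophages. LPS acts through TLR4, which leads to interferon beta and, through its receptor, to interferon-stimulated genes.

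The family lies in a cluster on chromosome 1, and the 4 genes are on its minus strand in GRCm38. Ifi204 spans chr1:173747293-173766943, Mndal chr1:173849126-173942491, Ifi203 chr1:173920407-173942672 and Ifi205 chr1:174011998-174031810. The promoters show a feature that the choice of genes did not use. The core of the interferon-stimulated response element, GAAANNGAAA, was searched on both strands from 250 bases before to 50 bases after each RefSeq start site (GRCm38.p6). It was present in 3.44% of 32851 promoters of this length and in a promoter of each of the 3 members with an entry, Ifi203, Ifi205 and Mndal. Of the other 6 PYHIN genes counted, Mnda, AI607873 and Pydc4 held it, and Aim2, Pyhin1 and Ifi202b did not. The 30-base windows below carry the match in capitals, read 5′ to 3′ on the minus strand, and were picked because their flanks are alike as well as the core. The windows of AI607873 and Pydc4 are not shown. Their flanks were less alike, after the core in AI607873 and before it in Pydc4.
Ifi203, chr1:173942508-173942537: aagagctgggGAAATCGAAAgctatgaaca
Mndal, chr1:173880204-173880233: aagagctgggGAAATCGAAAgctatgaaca
Ifi205, chr1:174031870-174031899: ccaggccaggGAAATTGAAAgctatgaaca
Mnda, chr1:173913064-173913093: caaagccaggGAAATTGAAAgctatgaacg
The windows of Ifi203 and Mndal were identical, and Mnda is a neighbouring gene that now has the symbol Ifi211. The match began at −35 from the start site in Ifi203, −36 in Mndal and −37 in Mnda, and at −134 in Ifi205, which held a further match on the opposite strand at 23 after its start site. The other Ifi203 promoter in the table held no match, and the other Mndal promoter held a match on the opposite strand at −54. The GAS motif TTCNNNGAA, found in 8.30% of promoters, and the kappaB motif, found in 4.51%, were in no promoter of these members. A match is a description of the letters and no measure of binding.

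The copies are alike enough to share reads. Of all 50-base stretches in the transcripts, 12.4% of those of Ifi203, 20.0% of Ifi204, 18.6% of Ifi205 and 19.6% of Mndal also occurred in another gene. Most shared stretches of Ifi205 were those of Mnda, at 18.5% of the Ifi205 stretches, and 44.7% of the Mnda stretches occurred in Ifi205. Exons of Mndal share 37 bases with Ifi203 and a further stretch with the pseudogene Gm38050 on the same strand. The counts of these genes are therefore uncertain where the counting could split or drop such reads, and the effect was not tested. RAW264.7 cells come from BALB/c mice and the reference from C57BL/6J, and the effect of that difference was not tested either.

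The libraries held between 27800983 and 47725557 counts. Of 8 macrophage markers 7 were counted, with Lyz2 at 4756 to 13430 CPM (counts scaled to library depth with TMM factors) and Adgre1 at 102 to 422 CPM. Of 13 markers of T cells, B cells, fibroblasts and epithelial cells 0 were in the table. The authors dropped genes lacking counts in any single library, so a gene missing from the table may still be expressed. Experiment 2 stood apart in control cells. Its summed level of 32 interferon genes was 3801 CPM in total mRNA against 1833 and 2307 CPM in experiments 1 and 3, and 3268 against 1830 and 2101 CPM in polysome-associated mRNA. It was also high with LPS + torin1, at 10242 against 5556 and 5784 CPM in total mRNA. The members moved with it in part. On the log2 scale, control experiment 2 lay above the mean of the other control experiments by 1.86 for Ifi204, 1.15 for Ifi203, 0.79 for Mndal and 0.22 for Ifi205 in total mRNA. On polysomes the difference was 2.04 for Ifi204, 1.51 for Ifi203 and 1.47 for Mndal, and −0.07 for Ifi205. The part of this difference in the results was not tested, and values without experiment 2 are given beside them.

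**Figure D1:**
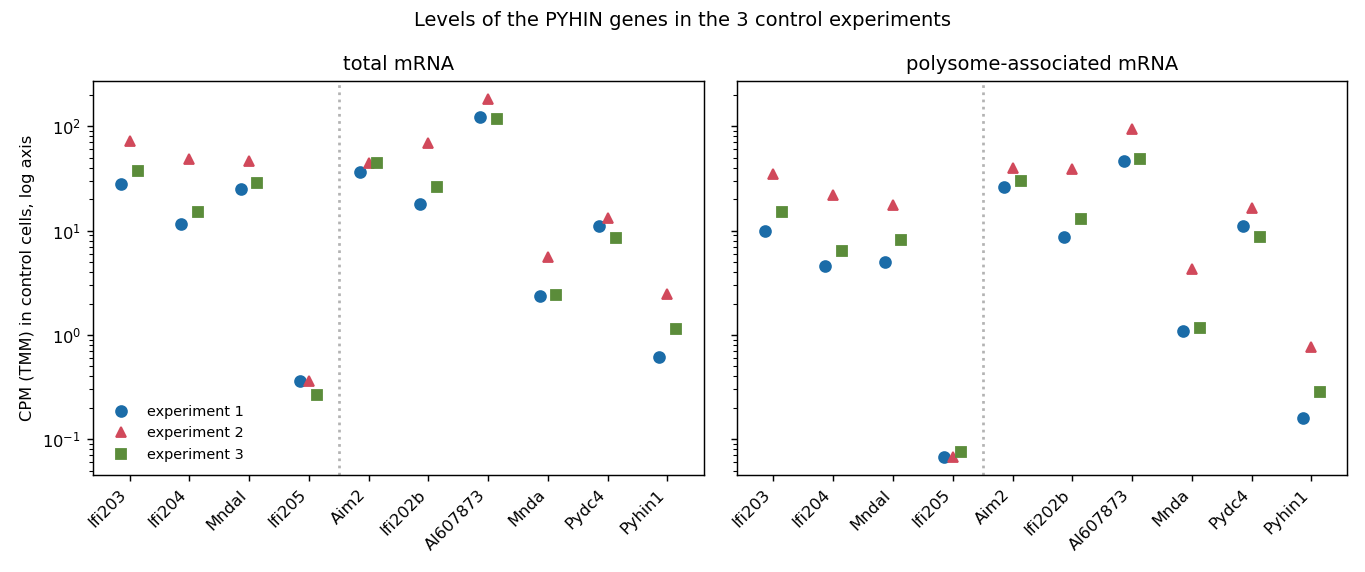
CPM of 10 PYHIN genes in control cells (log axis) in total mRNA (left) and polysome-associated mRNA (right), with a point for each of the 3 experiments. Experiment 2 was the highest for Ifi203, Ifi204 and Mndal in both RNA types, and Ifi205 was at 0.0679 to 0.0755 CPM in polysome-associated mRNA in all 3 experiments.

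Ifi205 was nearly absent from polysomes of control cells and clearly present after LPS. In polysome-associated mRNA it had 3, 3 and 4 counts in control experiments 1, 2 and 3, or 0.0682, 0.0679 and 0.0755 CPM. With LPS it had 281, 300 and 220 counts, or 9.14, 7.56 and 5.78 CPM. With LPS + torin1 it had 78, 137 and 72 counts, or 2.00, 3.46 and 1.58 CPM. The 3 treatments did not overlap, with LPS highest and control lowest. Among all genes 22.1% had LPS above control without overlap, 22.0% had LPS + torin1 above control and 16.8% had LPS + torin1 below LPS. Over the summed counts, 801 with LPS and 10 in control cells, the LPS level was 104 times the control level, with an exact 95% interval of 56.4 to 218 that covers counting error only. In total mRNA Ifi205 had 0.365, 0.364 and 0.264 CPM in control cells, then 13.5, 13.05 and 7.08 CPM after LPS and 3.20, 7.14 and 1.61 CPM after LPS + torin1. There the summed counts were 1041 and 37, a ratio of 33.3 with an interval of 24.02 to 47.6, and LPS + torin1 experiment 2 lay above LPS experiment 3. In bulk libraries fewer responding cells and less mRNA per cell cannot be told apart. Mnda, which shares the most sequence with Ifi205, had 48, 188 and 62 counts in polysomes of control cells, so that its experiment 2 was high where Ifi205 was not.

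Ifi204 was the most abundant member after LPS per length of transcript. In total mRNA it had 11.7, 48.6 and 15.2 CPM in control cells, then 544, 505 and 289 CPM after LPS and 147, 361 and 138 CPM after LPS + torin1. In polysome-associated mRNA it had 4.57, 22.1 and 6.34 CPM in control cells, then 177, 169 and 148 CPM after LPS and 77.7, 120 and 68.3 CPM after LPS + torin1. Control experiment 2 was the highest control library in both RNA types, and it lay below every LPS and LPS + torin1 library. Among all genes LPS + torin1 lay above control without overlap for 30.2% in total and 22.0% in polysome-associated mRNA. For LPS above control the shares were 25.6% and 22.1%. The fitted log2 difference of LPS and control was 3.91 in polysome-associated and 4.14 in total mRNA, and 4.88 and 4.95 without experiment 2.

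Ifi203, an interferon-inducible member, had 28.1, 72.0 and 37.2 CPM in total mRNA of control cells, then 427, 402 and 314 CPM after LPS and 160, 345 and 178 CPM after LPS + torin1. Its polysome-associated mRNA had 9.83, 34.7 and 15.1 CPM in control cells, then 152, 144 and 149 CPM after LPS and 78.3, 113.3 and 90.3 CPM after LPS + torin1. The LPS libraries were close to each other in polysomes, and the control libraries spread over a wider range. The fitted log2 difference of LPS and control was 2.90 in polysome-associated and 3.06 in total mRNA, and 3.58 and 3.50 without experiment 2.

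Mndal, the MNDA-like gene that overlaps Ifi203, had 24.9, 46.2 and 28.6 CPM in total mRNA of control cells, then 252, 204 and 164 CPM after LPS and 96.0, 183 and 96.9 CPM after LPS + torin1. Its polysome-associated mRNA had 4.98, 17.6 and 8.06 CPM in control cells, then 57.0, 57.7 and 60.3 CPM after LPS and 28.7, 44.3 and 35.5 CPM after LPS + torin1. All LPS libraries lay above all control libraries in both RNA types. The fitted log2 difference of LPS and control was 2.52 in polysome-associated and 2.63 in total mRNA, and 3.15 and 2.96 without experiment 2. For Ifi205 it was 6.67 and 5.06, and 6.62 and 5.01 without experiment 2. The LPS libraries lay above the control libraries for all 4 members in both RNA types. Among all genes 22.1% were separated upward in this way in polysome-associated mRNA and 25.6% in total mRNA, and 26.4% and 32.2% were called higher by the test used below. Nothing is read from these shares, since the members were chosen with this difference in view.

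**Figure D2:**
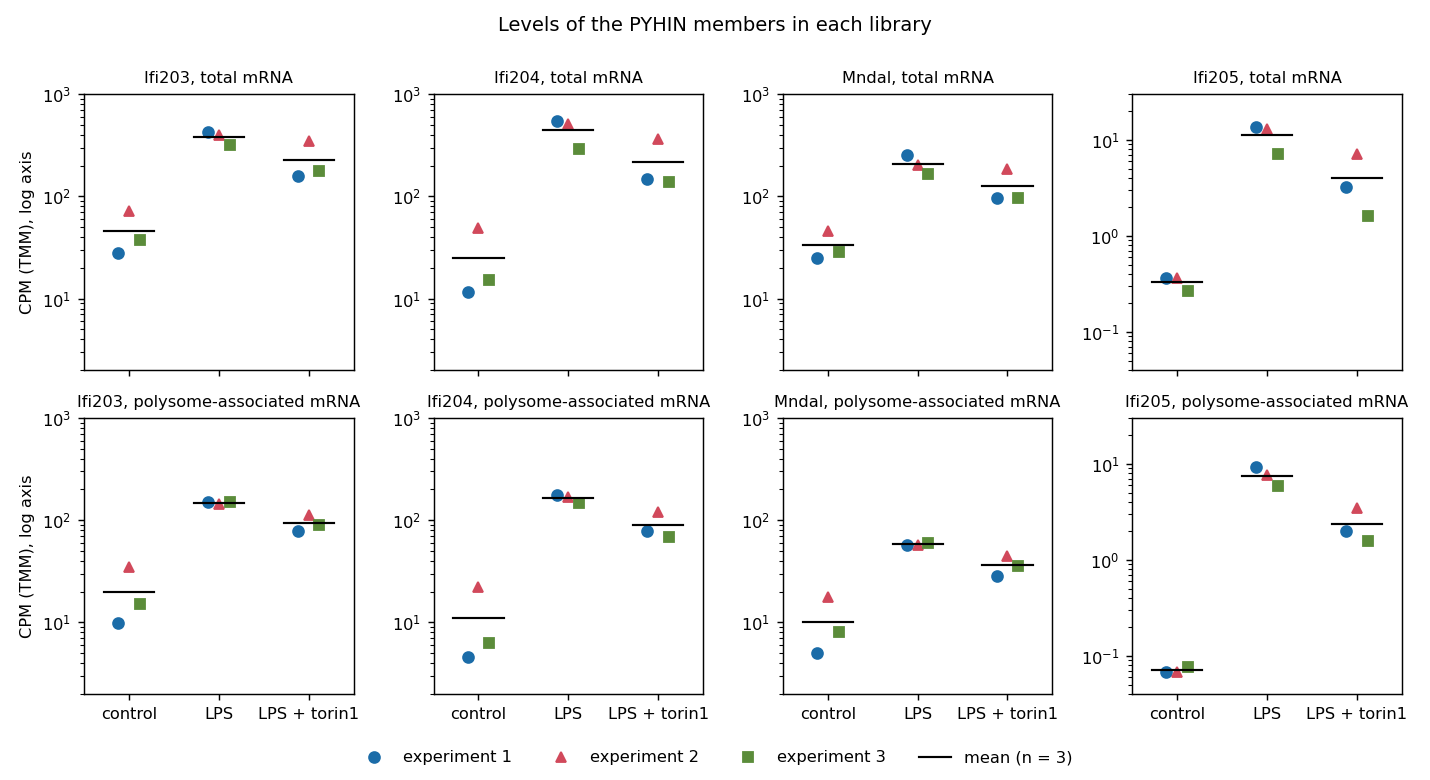
CPM of the 4 members (log axis) by treatment in total mRNA (top) and polysome-associated mRNA (bottom), with a point for each of the 3 experiments and a line at their mean. In polysome-associated mRNA the LPS + torin1 libraries of all 4 members lay between the control and the LPS libraries with no overlap. Among all genes 22.0% lay above control and 16.8% below LPS in this way. In total mRNA LPS + torin1 experiment 2 reached into the LPS range.

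Levels were set side by side per kilobase of exon sequence that no other gene overlaps. In total mRNA of LPS cells Ifi204 was at 125.2 ± 38.6 CPM per kb (SD, n = 3), Mndal at 59.4 ± 12.7, Ifi203 at 57.1 ± 8.88 and Ifi205 at 2.68 ± 0.854. Mndal and Ifi203 did not differ beyond their spread. In control cells the 3 abundant members did not differ beyond their spread in total mRNA, with means of 6.86 to 9.56 CPM per kb, and Ifi205 was at 0.0792 ± 0.0139. In polysome-associated mRNA of LPS cells the order was Ifi204 at 46.3 ± 4.21, Ifi203 at 22.2 ± 0.599, Mndal at 16.8 ± 0.501 and Ifi205 at 1.79 ± 0.402 CPM per kb.

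With torin1 the 3 tested members fell in total mRNA, and on polysomes their change was near the threshold unless the experiment entered the model. Ifi203, Ifi204 and Mndal were tested with the quasi-likelihood test of edgeR at a false discovery rate (FDR) of 0.25, with p-values adjusted by Benjamini and Hochberg over all genes. This comparison shares its LPS libraries with LPS against control, the contrast in view when the genes were chosen, so the p-values of these 3 genes are not free of that choice. Ifi205, whose own values led to the choice, has values and no test. In total mRNA the log2 difference of LPS + torin1 and LPS was −0.74 ± 0.36 (SE, adjusted p = 0.144) for Ifi203, −1.05 ± 0.53 (adjusted p = 0.163) for Ifi204 and −0.72 ± 0.30 (adjusted p = 0.0924) for Mndal. All 3 were called lower, in 3 of 3 experiments each, where 26.4% of all genes were called lower and 27.3% higher. The fitted value of Ifi205 was −1.49. With the experiment as a block in edgeR the adjusted p-values in total mRNA were 0.0156 for Ifi203, 0.0139 for Ifi204 and 0.0162 for Mndal.

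In polysome-associated mRNA the difference was −0.87 ± 0.48 (SE) for Ifi204 and −0.66 ± 0.36 for Mndal, and both were called with an adjusted p just inside the threshold, 0.2499 and 0.2495. Ifi203 was not called, at −0.63 ± 0.36 (SE, 95% interval −1.43 to 0.17, adjusted p = 0.273). Among all genes 18.2% were called lower and 20.3% higher. With the experiment as a block in edgeR all 3 tested members were called lower, as were 2736 of 11243 genes. The adjusted p-values were then 0.120 for Ifi203, 0.0793 for Ifi204 and 0.0943 for Mndal. The LPS + torin1 libraries of all 4 members lay below the LPS libraries, as they did for 16.8% of all genes. Ifi205 had a fitted value of −1.65, and its differences within experiments 1, 2 and 3 were −2.18, −1.12 and −1.86.

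Experiment 2 had the smallest decrease for every member in both RNA types. In total mRNA Ifi203 differed by −1.42, −0.22 and −0.82 in experiments 1, 2 and 3, Ifi204 by −1.89, −0.49 and −1.06, Mndal by −1.39, −0.16 and −0.76 and Ifi205 by −2.07, −0.87 and −2.13. Without experiment 2 the fitted values in total mRNA were −1.14 for Ifi203, −1.55 for Ifi204, −1.11 for Mndal and −2.09 for Ifi205. In polysome-associated mRNA they were −0.81, −1.14, −0.85 and −2.03, and the 3 tested members were then called lower in both RNA types with adjusted p-values of 0.00528 to 0.0316. Without experiment 1 or without experiment 3 none of the 3 was called in either RNA type, with adjusted p-values of 0.272 to 0.617.

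**Figure D3:**
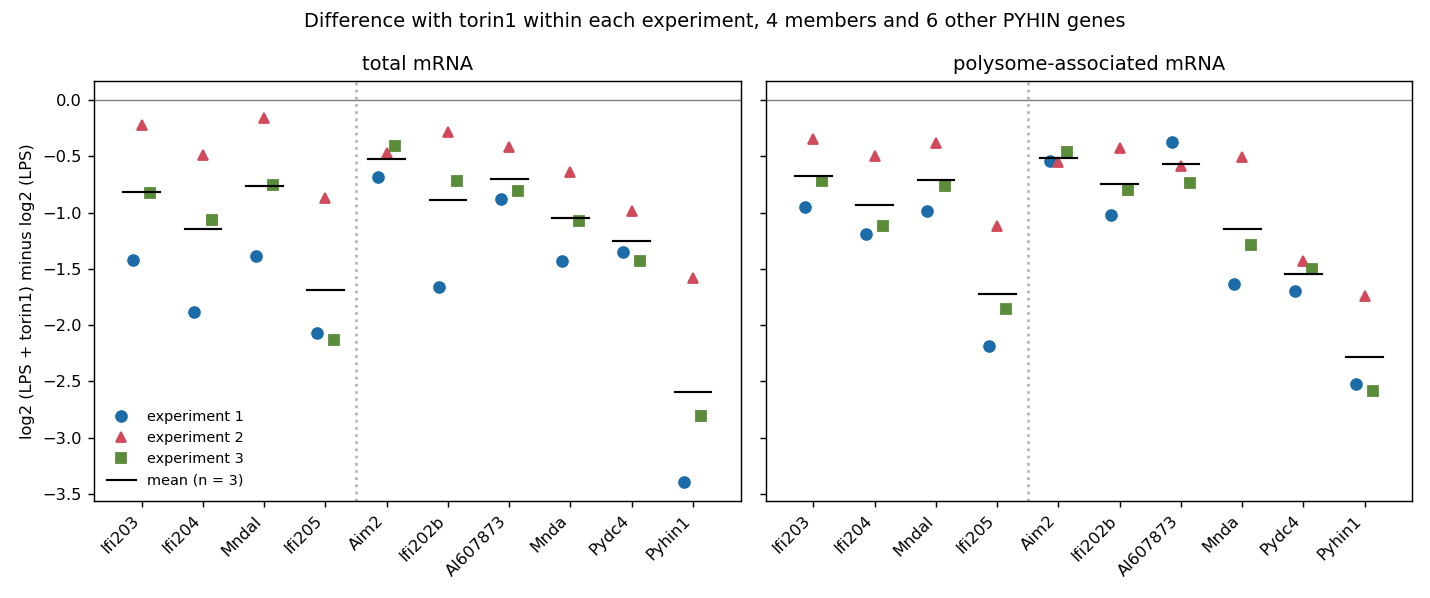
Log2 difference between LPS + torin1 and LPS within each experiment for the 4 members (left of the dotted line) and 6 other PYHIN genes, in total and polysome-associated mRNA, with a line at the mean of 3. Every point lay below 0, and for the 4 members experiment 2 was the nearest to 0 in both RNA types.

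The members stayed above control cells with torin1 present. This comparison shares its control libraries with LPS against control, the contrast in view when the genes were chosen. The p-values of the 3 tested members are therefore not free of that choice. In polysome-associated mRNA LPS + torin1 differed from control by 2.27 ± 0.38 (SE, adjusted p = 0.00106) for Ifi203, 3.04 ± 0.51 (adjusted p = 0.00112) for Ifi204 and 1.85 ± 0.37 (adjusted p = 0.00317) for Mndal on the log2 scale. All 3 were called higher, as were 28.5% of all genes. In total mRNA the differences were 2.31 ± 0.37 (adjusted p = 0.000569), 3.09 ± 0.57 (adjusted p = 0.00132) and 1.91 ± 0.31 (adjusted p = 0.000522), and 33.1% of all genes were called higher. These calls held under every alternative run, with adjusted p-values of at most 0.0458. Ifi205 had fitted values of 5.02 and 3.57, with no test, and 4.59 and 2.92 without experiment 2.

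The share of transcript on heavy polysomes was low for Ifi203, Ifi204 and Mndal in every treatment, and for Ifi205 in control cells. Among the 4 members Ifi205 had the largest difference between LPS and control cells. Nothing is read from that rank, since Ifi205 was chosen on its difference between LPS and control in polysome-associated mRNA. Polysome-associated minus total mRNA of the same lysate, on the log2 scale of normalised CPM, is a relative measure in which the median of all genes is near 0. Ifi205 was at −2.21, −2.21 and −1.64 in control cells, then −0.56, −0.79 and −0.29 after LPS and −0.67, −1.04 and −0.02 after LPS + torin1. The control libraries lay below all others, on 3, 3 and 4 polysome counts, and the share of all genes separated in this way was not counted. The summed counts gave a ratio of polysome-associated to total level of 0.213 in control cells (exact 95% interval 0.0942 to 0.436, 10 and 37 counts), 0.665 after LPS (0.605 to 0.729) and 0.578 after LPS + torin1 (0.493 to 0.678). These intervals cover counting error only and leave out the spread between experiments. Among all genes Ifi205 lay on average at percentile 0.577 in control cells and 20.2 with LPS. With LPS + torin1 it lay at percentiles 12.9, 7.92 and 49.0 in experiments 1, 2 and 3.

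The means of the other members differed between treatments by less than their spread. Ifi203 was at −1.29 ± 0.23 (SD, n = 3) in control cells, then −1.35 ± 0.24 after LPS and −1.20 ± 0.35 after LPS + torin1. Ifi204 was at −1.25 ± 0.11, −1.39 ± 0.37 and −1.18 ± 0.36, and Mndal at −1.85 ± 0.46, −1.80 ± 0.35 and −1.75 ± 0.30. Mndal lay at percentiles 0.729 to 0.943 of all genes in every treatment. The fitted change of translation efficiency between LPS and control, which is the change in polysome-associated beyond that in total mRNA, was 1.60 with a 95% interval of −0.13 to 3.32 for Ifi205, −0.16 for Ifi203, −0.24 for Ifi204 and −0.12 for Mndal. The model of these values does not pair the libraries of a lysate. The interval is no test, since Ifi205 was chosen on LPS against control, and the other values are given with no test.

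**Figure D4:**
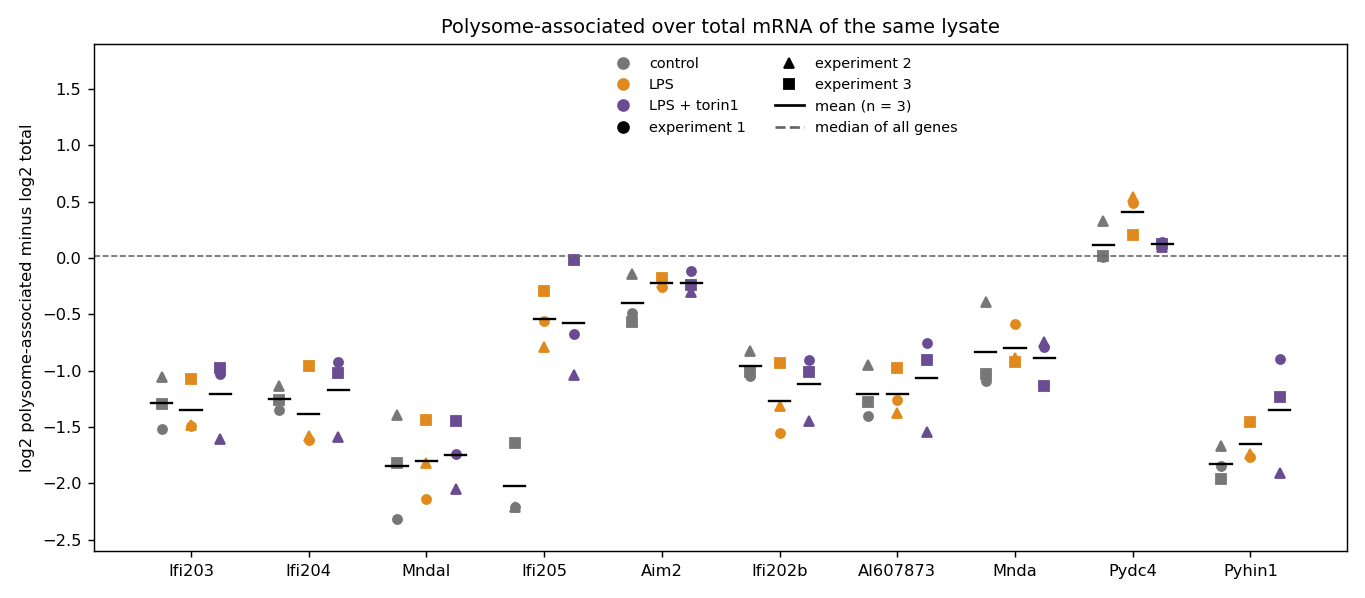
Log2 polysome-associated minus log2 total mRNA of the same lysate for 10 PYHIN genes by treatment, with a point for each of 3 experiments, a short line at their mean and a dashed line at the median of all genes. Ifi205 moved from a mean of −2.02 in control cells to −0.55 with LPS, and the other members stayed within −1.85 to −1.18.

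Within LPS + torin1 cells this share could be tested, since these libraries did not enter the choice. Polysome-associated mRNA lay below total mRNA by −1.79 ± 0.37 (SE, adjusted p = 0.00193) for Mndal, −1.28 ± 0.40 (adjusted p = 0.0236) for Ifi203, −1.28 ± 0.56 (adjusted p = 0.0936) for Ifi204 and −0.76 ± 0.41 (adjusted p = 0.170) for Ifi205. All 4 were called lower, where 27.8% of all genes were called lower and 27.8% higher. Of the other 6 PYHIN genes 5 were called lower as well, with a median of −0.95, and 3 were without experiment 1, without experiment 3 or with DESeq2. The Ifi205 call was lost without experiment 1 (adjusted p = 0.398), without experiment 2 (−0.43, adjusted p = 0.494) and with only the LPS + torin1 libraries in the model (adjusted p = 0.319). With each lysate as a block, which pairs the RNA types, edgeR called all 4 lower. The adjusted p-values were then 9.91e-06 for Mndal, 2.46e-05 for Ifi203, 3.68e-05 for Ifi204 and 0.0143 for Ifi205 (−0.64).

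No change of translation efficiency with torin1 was detected for the members. The interaction of RNA type and torin1 was 0.09 (95% interval −1.09 to 1.27) for Ifi203, 0.15 (−1.50 to 1.81) for Ifi204 and 0.03 (−1.04 to 1.10) for Mndal, with an adjusted p of 1.00 for each, and the value of Ifi205 was −0.18, or −0.82 by an analysis of partial variance. These intervals include large changes in either direction. The edgeR test called 0 of 11243 genes (0%), with 110 genes at an unadjusted p under 0.05. The model of this test and of the intervals does not pair the libraries of a lysate. DESeq2 called 13 genes, the analysis of partial variance 20 and edgeR with each lysate as a block 25.

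The other 6 PYHIN genes in the table were also higher with LPS. All 6 were called higher with LPS in both RNA types, with a median log2 difference of 2.65 in polysome-associated mRNA against −0.03 for all genes. The shares of all genes called higher with LPS were 26.4% in polysome-associated and 32.2% in total mRNA. Pyhin1 was at 5.93, Mnda at 3.84, Ifi202b at 3.60, AI607873 at 1.70, the DNA sensor Aim2 at 1.44 and Pydc4 at 1.44. With torin1 all 6 were called lower in total and 5 in polysome-associated mRNA, where Ifi202b was at −0.70 (adjusted p = 0.318). The shares of all genes called lower were 26.4% and 18.2%. The 5 became 2 without experiment 1, without experiment 3 or at an FDR of 0.05, and 6 without experiment 2. In polysome-associated mRNA Pydc4 with LPS + torin1 was at −0.08 from control (adjusted p = 0.866). The other 5 were called higher, as were 28.5% of all genes. Ifi202b shared 0% of its 50-base stretches with another gene and Aim2 0.742%, whereas Mnda shared 72.8%, Pyhin1 33.7%, Pydc4 15.6% and AI607873 7.29%. The counts of Mnda and Pyhin1 in particular may hold reads of their copies, which was not tested.

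Genes of the wider pathways, from lists chosen with earlier results known, moved in both directions. Of 32 interferon genes, 28 were called higher and 1 lower with LPS in polysome-associated mRNA (median 2.25), and 30 and 1 in total mRNA. Among all genes 26.4% were called higher and 28.7% lower in polysome-associated mRNA, and 32.2% and 34.3% in total mRNA. The antiviral gene Rsad2 was at 6.08, the GTPase gene Gbp2 at 5.29 and Irf7 at 2.28, while the receptor genes Ifnar1 and Ifnar2 were at 0.04 (adjusted p = 0.873) and −0.42 (adjusted p = 0.104). With torin1 18 of the 32 were called lower and 2 higher in polysome-associated mRNA, and 23 and 2 in total mRNA, where 18.2% and 26.4% of all genes were called lower. The 18 became 10 without experiment 1, 26 without experiment 2, 6 without experiment 3 and 6 at an FDR of 0.05. The 23 became 16, 25, 10 and 11.

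Of 22 DNA sensing genes, 8 were called higher and 6 lower with LPS in polysome-associated mRNA, with a median of 0.02, near the shares over all genes of 26.4% and 28.7%. Zbp1, a sensor of Z-form nucleic acid, was at 4.38, the kinase gene Ikbke at 2.43 and Tmem173, which encodes STING, at 0.97. Mb21d1, which encodes cGAS, was at 0.25 (adjusted p = 0.301), Irf3 at −0.67, and the DNA repair genes Prkdc and Xrcc6 at −0.91 and −1.07. Of 10 inflammasome genes 8 were called higher and 1 lower. The cytokine gene Il1b was at 9.73 and Casp4 at 3.20, while Nlrc4 was at 0.03 (adjusted p = 0.962) and Nek7 at −0.77.

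Across the 18 libraries, the gene whose log2 level was most like that of Ifi204 was Ifi202b (Pearson r = 0.998), followed by Sp100 (0.994) and Sp110 (0.992). Ifi203 was most like Samd9l (0.994), Fndc3a (0.992) and Ifi204 (0.991). Mndal was most like Golga3 (0.990), Sass6 (0.979) and Zcchc6 (0.978), and Ifi205 was most like Stat3 (0.977), Tbrg1 (0.976) and Rsbn1 (0.9750). Among the members r ran from 0.865 for Ifi205 and Mndal to 0.991 for Ifi203 and Ifi204. The points share treatments, lysates and RNA types, so these values describe the libraries and carry no p.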

How the data were processed

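Stranded, ribosomal RNA-depleted libraries were sequenced paired-end. The authors ran the nextflow RNAseq pipeline at default settings, aligned reads to GRCm38 with Hisat2, counted them with featureCounts and the Ensembl annotation, and dropped noncoding genes and those lacking counts in any sample. Raw, unnormalized counts per gene were deposited, and the lowest is 1. Versions of Hisat2 and of the annotation are not given in the sources used here.

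The main tests used edgeR 4.0.16 under R 4.3.3 (TMM, quasi-likelihood test, 9 libraries of an RNA type per model, or 6 groups over 18 libraries for interactions and polysome-associated against total mRNA). The FDR threshold of 0.25, and for translation efficiency a fold of 1.2, follow the study's methods. anota2seq was not used here. Differences within experiments use log2 CPM with a prior count of 0.5. Depth ranged from 27800983 to 47725557 counts, and intervals of count ratios cover counting error only. Scripts were tested on simulated data. Alternatives were DESeq2 1.42.0, its size factors, analysis of partial variance with limma 3.58.1, a minimum of 10 counts, an FDR of 0.05, a replicate block, only the treatments compared and each experiment left out.

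Members and lists were chosen with earlier results of these data known. Named were the members, the counted PYHIN genes, the 2 highest and 2 lowest genes of each list by LPS against control in polysome-associated mRNA, Sting1, Cgas, Irf3, Aim2 and Irf7, and the 3 genes most correlated with each member. A further gene of this rule is not reported here. Symbols are those of the table, and current names were matched through RefSeq. Exons came from GENCODE and promoters from RefSeq. Ifi204 had no promoter entry.

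The experiment number in the labels, and the matched lysates of the methods, give the pairing of libraries of a lysate and of treatments of an experiment. Deviations from group means correlated between total and polysome-associated mRNA of a lysate (r = 0.389 to 0.649, 9 of 9 pairs above 0.1) and between treatments in total mRNA (0.149 to 0.424, 9 of 9). Between treatments in polysome-associated mRNA r was above 0.1 in 5 of 9 pairs.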

Additional observations from a re-analysis of the deposited data

How the results depend on the processing

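At an FDR of 0.05 in place of 0.25, genes called fell to 1557 (torin1 against LPS) in polysome-associated and 3279 in total mRNA, 3950 for LPS + torin1 against control and 3654 for LPS against control in polysome-associated mRNA, and 3481 for polysome-associated against total mRNA. Leaving out an experiment gave 1187 to 5182 genes for torin1 in polysome-associated and 3959 to 5385 in total mRNA, 4156 to 7627 for LPS + torin1 against control and 3901 to 7251 for LPS against control in polysome-associated mRNA. For translation efficiency 0 genes became 13 with DESeq2, 20 with partial variance and 25 with the replicate block, and partial variance put Ifi205 at −0.82. Leaving out an experiment turned the sign of the efficiency values with torin1, which ran from −0.0273 to 0.301 for Ifi203, −0.0383 to 0.386 for Ifi204, −0.128 to 0.237 for Mndal and −0.25007 to 0.0338 for Ifi205. The cause was not tested.

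The torin1 calls in polysome-associated mRNA depended on the setting. Ifi203 was called with DESeq2 (adjusted p = 0.208), with only LPS and LPS + torin1 in the model (0.0577) and with the replicate block (−0.69, 0.120), over a range of 0.0256 to 0.617. Ifi204 was lost with DESeq2 (0.360) and, like Mndal, with the filter on low counts (0.251 and 0.253), over ranges of 0.00528 to 0.572 and 0.0316 to 0.603. In total mRNA Ifi204 was also lost with DESeq2 (0.25004). At an FDR of 0.05 no torin1 call of the 3 was kept. In polysome-associated mRNA the treatments of an experiment deviated together in 5 of 9 pairs (r = −0.09 to 0.74), against 9 of 9 in total mRNA. The block changed no other call of a member at an FDR of 0.25. Of 172 tested values of members under alternatives, 141 kept direction and call. Of 99 values with no test, 87 moved by less than their standard error.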

Other observations

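Some genes of the fixed lists were higher with torin1 than with LPS alone in polysome-associated mRNA, and others were lower. Of 22 DNA sensing genes 5 were called higher and 6 lower, and of 10 inflammasome genes 2 and 3. Among all genes 20.3% were called higher and 18.2% lower. The 5 and 6 became 0 and 3 without experiment 1, and 2 and 2 without experiment 3. The genes named here are picked from those called. The inflammasome receptor gene Nlrc4 was at 1.28 ± 0.34 on the log2 scale (SE, edgeR adjusted p = 0.0315), Nek7, a partner of NLRP3, at 1.02 ± 0.19 (adjusted p = 0.00673) and Prkdc, the catalytic subunit of the DNA-dependent kinase, at 0.95 ± 0.27 (adjusted p = 0.0406). The Prkdc call was lost without experiment 1 (adjusted p = 0.287, over a range of 0.00421 to 0.287), and the calls of Nlrc4 and Nek7 held without each experiment. In total mRNA the 3 were at 1.22, 0.84 and 0.74. Mb21d1 and Tmem173 were lower, at −0.98 ± 0.17 (adjusted p = 0.00562) and −0.72 ± 0.15 (adjusted p = 0.0111).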
